A study of Mus musculus with 2 samples.

Results

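Imprinted genes are expressed mainly or wholly from 1 parental copy, and the 39 genes described here are the classical imprinted genes of the mouse genome with the members of their clusters. A gene was taken with every peak whose centre lay within 3 kb of any of its annotated transcription start sites (TSS), called a promoter peak, or in its gene body and the 10 kb upstream, called a region peak. The 39 genes are 39 of 32093 protein-coding and long non-coding genes of the GENCODE vM21 annotation on GRCm38. Their regions held 126 of 77596 peaks in the list labelled WT and 159 of 100431 peaks in the list labelled Bmi1-/-.

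The study mapped open chromatin by ATAC-seq in the organ of Corti, the sensory epithelium of the cochlea, of neonatal mice with and without Bmi1, a core subunit of Polycomb repressive complex 1. Heterozygous mice of the strain FVB.129P2-Bmi1tm1Brn/MvlJ, backcrossed to C57BL/6J, were mated, and WT littermates served as controls for the Bmi1-/- mice, in which Bmi1 is absent from every cell and not from the ear alone. Each genotype was measured once, in 1 library from the pooled tissue of several mice, so that no difference between the lists has a replicate check and no p-value is given. Intervals given below are exact 95% intervals and cover counting error only.

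At an imprinted cluster, an imprinting control region carries DNA methylation on the copy from 1 parent, and that mark sets which genes of the cluster are expressed from which copy. ZFP57, a zinc finger protein, binds a methylated hexamer at these regions and brings in TRIM28, which keeps the mark in the embryo. CTCF binds the unmethylated copy of the H19 control region and separates Igf2 from its enhancers. ATAC-seq does not tell the parental copies apart, and in pooled whole tissue a change in the share of cells of a type and a change in the signal per cell cannot be told apart.

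The peak names inside the list labelled WT carry the prefix bko and those inside the list labelled Bmi1-/- the prefix bwt, for 100% of peaks in each, so every direction below holds for the labels as deposited. Bmi1 itself had 4 promoter peaks in the list labelled Bmi1-/- against 1 in the other, and since the deleted part is not given in the sources used here, this does not check the labels. The commonest background at a summit was 6.32 reads for the WT label and 8.04 for the other, a ratio of 1.27. The lowest pileup listed at these backgrounds was 13 and 15 reads. Of the markers of the tissue, 7 of 8 hair cell genes and 7 of 8 supporting cell genes had a promoter peak in the list labelled WT, against 5 of 8 and 5 of 8 in the other. Of the markers of other cells, promoter peaks were found for 4 of 6 neuronal, 3 of 6 mesenchymal, 4 of 6 blood and macrophage and 5 of 6 endothelial genes in the list labelled WT, and for 6, 4, 1 and 4 in the list labelled Bmi1-/-. Over all genes the shares were 51.5% and 59.9%, and over protein-coding genes 59.1% and 68.2%. With so few genes a set the intervals were wide, 47.4 to 99.7% for 7 of 8 and 24.5 to 91.5% for 5 of 8. The part of these differences in the results below was not tested.

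The sequences printed here are those that hold the word ZFP57 reads. For each locus other than Impact with a promoter peak holding at least 3 copies of the ZFP57 hexamer TGCCGC, on either strand, the 200 bases with most copies are printed from GRCm38, with the hexamers in capitals. The window was taken from the list labelled Bmi1-/- where both lists had such a peak, and no locus was added by the other list, so all 7 come from the former. At Snrpn and Mkrn3 the list labelled WT had no promoter peak. At Grb10, Inpp5f and Peg3/Usp29 a WT-labelled peak overlapped the same peak, and at Mest and Gnas none did.

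Snrpn, chr7:60004358-60004557, plus strand: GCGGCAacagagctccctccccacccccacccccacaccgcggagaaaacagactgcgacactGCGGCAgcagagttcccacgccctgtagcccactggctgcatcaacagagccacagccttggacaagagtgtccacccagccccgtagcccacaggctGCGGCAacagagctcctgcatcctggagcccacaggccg

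Mkrn3, chr7:62419093-62419292, plus strand: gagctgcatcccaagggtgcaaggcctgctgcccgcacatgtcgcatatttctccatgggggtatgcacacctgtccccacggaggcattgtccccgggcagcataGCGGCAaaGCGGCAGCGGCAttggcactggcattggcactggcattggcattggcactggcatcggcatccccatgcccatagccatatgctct

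Grb10, chr11:12026068-12026267, plus strand: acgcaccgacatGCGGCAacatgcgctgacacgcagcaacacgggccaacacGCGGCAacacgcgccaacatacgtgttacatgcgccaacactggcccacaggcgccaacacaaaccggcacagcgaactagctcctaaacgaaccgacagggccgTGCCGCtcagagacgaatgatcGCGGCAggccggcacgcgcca

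Inpp5f, chr7:128687971-128688170, plus strand: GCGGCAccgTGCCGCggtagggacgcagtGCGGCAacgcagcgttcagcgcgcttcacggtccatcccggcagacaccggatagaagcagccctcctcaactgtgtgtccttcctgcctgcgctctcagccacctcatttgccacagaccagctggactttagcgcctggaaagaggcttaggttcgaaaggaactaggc

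Peg3/Usp29, chr7:6729973-6730172, plus strand: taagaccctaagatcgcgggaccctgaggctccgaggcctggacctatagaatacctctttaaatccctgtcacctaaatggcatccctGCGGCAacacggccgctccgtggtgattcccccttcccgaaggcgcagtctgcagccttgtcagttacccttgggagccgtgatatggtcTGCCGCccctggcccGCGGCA

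Mest, chr6:30738013-30738212, plus strand: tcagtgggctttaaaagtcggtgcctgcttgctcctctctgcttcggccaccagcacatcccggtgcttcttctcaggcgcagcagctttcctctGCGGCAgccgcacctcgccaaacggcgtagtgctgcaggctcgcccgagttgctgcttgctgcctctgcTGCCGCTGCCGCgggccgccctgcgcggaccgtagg

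Gnas, chr2:174299353-174299552, plus strand: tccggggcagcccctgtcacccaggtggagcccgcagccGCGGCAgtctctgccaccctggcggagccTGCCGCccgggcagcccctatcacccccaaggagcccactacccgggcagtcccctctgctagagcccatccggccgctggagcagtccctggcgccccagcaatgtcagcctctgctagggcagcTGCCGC

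The Inpp5f peak from which this window was taken held 6 hexamers over 648 bases, the most of any printed peak. The Peg3/Usp29 peak held 5, the Grb10, Mest and Snrpn peaks 4 each, and the Gnas and Mkrn3 peaks 3 each. CpG, the dinucleotide that carries the methyl mark, was counted in the printed windows. The Grb10 window held 25 CpG in 200 bases, and the Snrpn and Mkrn3 windows held 9 and 8.

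The CTCF core CGNGGNGGC, searched on both strands, was found 3 times in the 10 kb upstream of H19, a maternally expressed long non-coding RNA. These 3 sites, with the core in capitals, are shown because the lists differed in peaks there.

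H19 upstream, 2168 bases, chr7:142580301-142580330, minus strand: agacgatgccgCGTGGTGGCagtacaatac

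H19 upstream, 2623 bases, chr7:142580756-142580785, minus strand: ggatgctaccgCGCGGTGGCagcatactcc

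H19 upstream, 3893 bases, chr7:142582026-142582055, minus strand: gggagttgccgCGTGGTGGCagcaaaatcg

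The site at 2623 bases lay inside a WT-labelled peak, chr7:142580612-142580924, at the 46.1 percentile of its list and with no overlapping peak in the other list. The other 2 sites lay 293 and 1112 bases from the nearest WT-labelled peak. In the list labelled Bmi1-/- the nearest peak was 1907, 2362 and 3632 bases away.

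In 101-base windows around peak summits, the ZFP57 hexamer was found at 7 of 64 promoter peaks of the members in the list labelled WT, or 10.9% (4.51 to 21.2%), and at 9 of 79 in the list labelled Bmi1-/-, or 11.4% (5.34 to 20.5%). Among promoter peaks of all genes, members included, the shares were 5.04% and 5.08%, and among all peaks 2.46% and 2.32%. The median CpG content of the windows was 2.97 and 3.96 per 100 bases for the members and 2.97 in both lists for promoter peaks of all genes. Over whole peaks, which differ in width, at least 3 hexamers were found in 4.69% and 10.1% of the members' promoter peaks, against 0.960% and 1.87% of the promoter peaks of all genes. The CTCF core was found in 2 promoter windows of each list, the YY1 word GCCATNTT in 2 and 4, and the NRF1 word GCGCATGCG in none of the 64 or the 79, which allows shares of up to 5.60% and 4.56%. In promoter windows of all genes these words were found in 4.44% and 4.11%, in 1.69% and 1.72% and in 0.384% and 0.480%. In the 300 bases around RefSeq starts (GRCm38), which matched 33 of the 39 genes with 48 promoters, the ZFP57 hexamer was found in 13 (27.1%), and in 11.6% of all 32851 such promoters. Letters shared by overlapping words counted for each word. A match is a run of letters and not a bound site.

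Most members had a promoter peak in both lists. Of the 39 genes, 29 had a promoter peak in both lists (74.4%, 57.9 to 87.0%), where 43.8% of all genes did. A further 7 had promoter peaks in the list labelled Bmi1-/- and none in the other, a share of 17.9% (7.54 to 33.5%), and all genes gave 16.1%. No member had promoter peaks in the list labelled WT alone, which allows a share of up to 9.03%, and 7.68% of all genes did. The remaining 3 had none in either list, against 32.4% of all genes. The share in the Bmi1-/- list alone was thus near that of all genes, whereas the interval for both lists lay above it. Many peaks were weak, and 52.4% and 62.9% of all peaks of the lists had a −log10 q of at least 1.3. At that limit 24 members had promoter peaks in both lists (61.5%, 44.6 to 76.6%), and 31.7% of all genes. Among the 32 protein-coding members 22 had promoter peaks in both lists (68.8%, 49.99 to 83.9%), an interval that included the 53.0% of protein-coding genes. Members had a median of 5 annotated TSS and all genes 2, so a member had more windows in which a peak could be found, and the part of this was not tested. The intervals count each gene as separate. Peg3 and Usp29, Peg10 and Sgce, Nnat and Blcap, Gnas and Nespas, and Commd1 and Zrsr1 shared promoter peaks. With the TSS of RefSeq transcripts the counts over 38 members became 20 in both lists (52.6%, 35.8 to 69.0%), 12 in the list labelled Bmi1-/- alone (31.6%, 17.5 to 48.65%), 2 in the list labelled WT alone and 4 in neither. Over 23113 genes with such transcripts the first 2 shares were 46.3% and 18.2%, and each lay inside the members' interval.

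**Figure D1:**
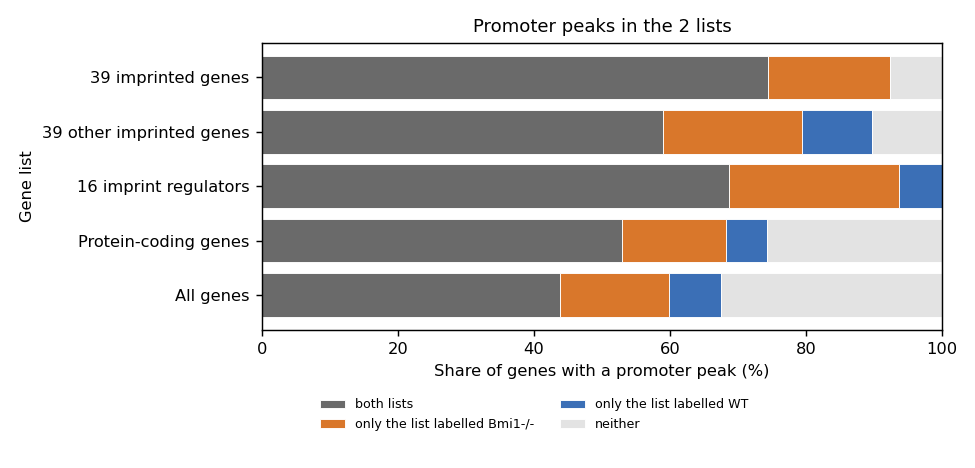
Share of genes (%, horizontal axis) with a promoter peak in both lists, in 1 list or in neither, for the 39 imprinted genes and 4 other gene lists (rows). The grey segment for both lists reaches 74.4% for the imprinted genes and 43.8% for all genes, and the imprinted genes have no segment for the list labelled WT alone.

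Of the 7 members with promoter peaks in the list labelled Bmi1-/- alone, 5 lay in the Snrpn-Ube3a cluster on chromosome 7, the mouse counterpart of the Prader-Willi and Angelman region. These 5 paternally expressed members had 9 promoter peaks there and none in the list labelled WT. With promoter windows of 1 kb in place of 3 kb around the GENCODE TSS, Snrpn, Magel2 and Peg12 kept such peaks, and Ndn and Mkrn3 had none in either list. They are Snrpn, which encodes a splicing protein and holds the control region, Ndn and Magel2, MAGE family genes active in neurons, Mkrn3, a RING finger gene, and Peg12. Ube3a, the ubiquitin ligase that is silenced on the paternal copy in neurons, had 2 promoter peaks in each list.

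Peg12 had the strongest of these peaks, chr7:62462534-62462953 in its exon, with a pileup of 28 reads (18.6 to 40.5), a fold enrichment of 3.21 over background and a −log10 q of 4.49, at the 94.7 percentile of its list. The percentile is the peak's rank by −log10 p among all peaks of the same list. Ndn followed with 24 reads at a −log10 q of 2.71, in a peak at chr7:62348887-62349122, 2436 bases into the gene from its GENCODE TSS. Its RefSeq promoter of 300 bases, chr7:62348027-62348326, lay nearer to this peak. The strongest Magel2 peak, 1 of 4 across its single exon, had 23 reads and a −log10 q of 2.33. These peaks lay inside the genes and none upstream of a TSS, as the plot of the cluster's peaks shows. The Snrpn peak, 681 bases into the gene, had 22 reads and a −log10 q of 1.97, and the Mkrn3 peak had 21 reads (13 to 32.1) and a −log10 q of 1.65. Divided by the ratio of the backgrounds, the strongest peaks of these 5 genes had 16.5 to 22.0 reads, above the lowest pileup of 13 listed at the commonest background of the list labelled WT. Before that division the intervals at Mkrn3, Snrpn, Magel2 and Ndn reached down to 13, 13.8, 14.6 and 15.4 reads, and after it to below 13. Single peaks here thus rest on few reads, and the part of depth in the missing WT-labelled peaks was not tested. Of the 6 neuronal markers, 6 had promoter peaks in the list labelled Bmi1-/- (all genes 59.9%) and 4 in the other (all genes 51.5%). The list labelled WT lacked them at Neurod1 and Snap25. The part of the neuronal markers in the result at the cluster's genes was not tested.

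**Figure D2:**
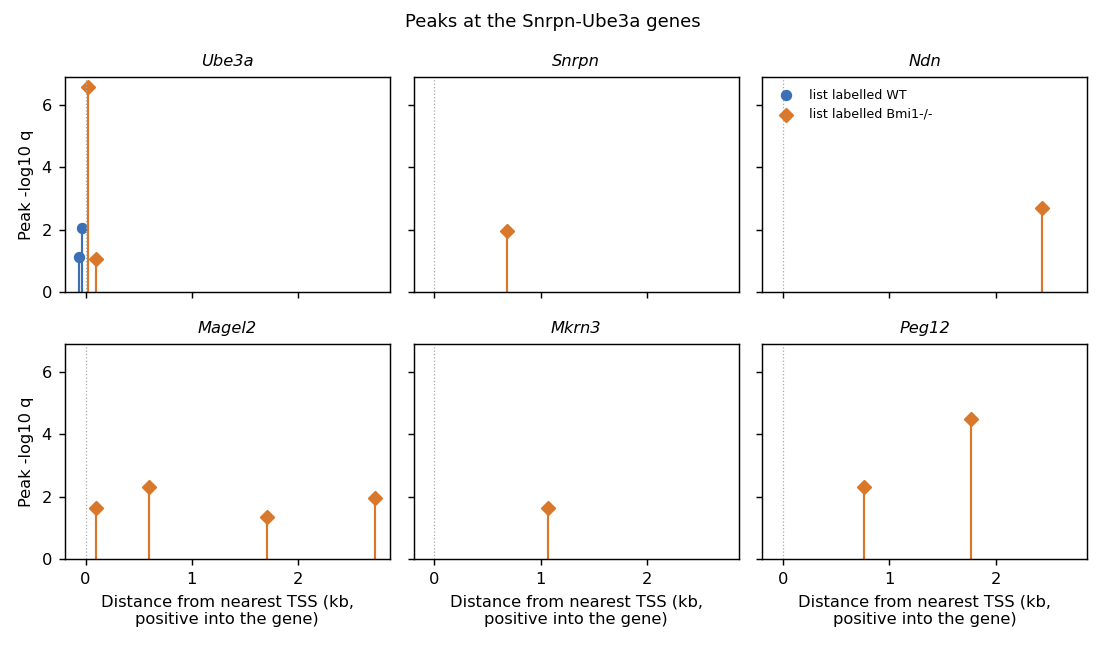
Height of each region peak as −log10 q (vertical axis) by the distance of its centre from the nearest TSS in kb (horizontal axis) for the 6 genes of the Snrpn-Ube3a cluster, with circles for the list labelled WT and diamonds for the list labelled Bmi1-/-. Ube3a has 2 peaks of each list at its TSS, and the 9 peaks of the other 5 genes are all from the list labelled Bmi1-/-.

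Between Ndn and Peg12, with 10 kb to each side (137.9 kb), the list labelled Bmi1-/- had 9 peaks and the list labelled WT none. The nearest WT-labelled peaks were 709.2 kb to the left and 67.4 kb to the right, and 15 peaks of the other list lay between them. Of 4884 windows of the same length over the genome with at least 9 peaks of the list labelled Bmi1-/-, 4 held no WT-labelled peak (0.0819%). The stretch was chosen after its values were seen, so this share describes its place among such windows and is no test. The list labelled WT had 52 gaps between neighbouring peaks on the autosomes at least as long as this one, and the list labelled Bmi1-/- had 22.

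The strongest peaks of the whole cluster were shared by the lists and lay elsewhere. Within Snhg14, the non-coding transcript that runs from Snrpn toward Ube3a, chr7:59769661-59770151 of the list labelled WT had 48 reads and a −log10 q of 21.4. The overlapping peak of the list labelled Bmi1-/- had 54 reads and a −log10 q of 21.9, and both were at the 99.8 percentile or above. Over the full span of 3256 kb the lists had 14 and 27 peaks, or 0.430 and 0.829 per 100 kb, against 2.85 and 3.68 over the genome. The ratio of 1.93 (0.976 to 3.98) included the ratio of the whole lists, 1.29.

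The other 2 members with promoter peaks in the list labelled Bmi1-/- alone had peaks of both lists elsewhere in the gene. Rasgrf1, a paternally expressed guanine nucleotide exchange factor of neurons, had 1 such peak, chr9:89910107-89910618 in an intron 451 bases from the TSS, with 29 reads (19.4 to 41.6) and a −log10 q of 2.73. Its body held 11 WT-labelled peaks and 10 of the other list, of which 4 and 4 overlapped. Slc22a18, a maternally expressed transporter gene, had 1 promoter peak with 29 reads and a −log10 q of 1.84, over a raised local background of 12.6 reads. Its region held 8 WT-labelled peaks and 2 of the other list.

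Over these 7 genes the percentile of the strongest peak ranged from 57.8 to 94.7, with a median of 78.0. Over the 5152 genes of the same state in the genome the median was 62.7. All 7 stayed in this state with RefSeq transcripts. They also did under settings that only remove peaks, which could hardly have changed it. Their strongest peaks had a −log10 q of 1.65 or more, above the limit of 1.3. Reduction to equal numbers kept the strongest 77596 of the 100431 peaks labelled Bmi1-/-, and scaling to the background of the other list kept 100113. With promoter windows of 1 kb 4 of the 7 did, and Slc22a18, Ndn and Mkrn3 had no promoter peak in either list. At a −log10 q of at least 5 none of the 7 had a promoter peak. At this limit 8 other members had one in the list labelled Bmi1-/- alone (20.5%, 9.30 to 36.5%), an interval that included the 11.4% of all genes. Among these 8, Peg3 and Usp29 shared a peak, as did Peg10 and Sgce. Without the Snrpn-Ube3a cluster the state held for 2 of 33 members.

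The 3 members with no promoter peak were Phlda2, Rtl1 and Nap1l5. Rtl1, a retrotransposon-derived gene of the placenta and muscle, had a strong peak inside its exon in the list labelled WT, chr12:109595195-109595428, with 26 reads and a −log10 q of 4.85. The peak that overlapped it in the other list had 22 reads and a −log10 q of 1.97. Phlda2, a maternally expressed regulator of placental growth, had 1 upstream peak in each list, which did not overlap. Nap1l5, an intronless histone chaperone gene within Herc3, had 1 overlapping upstream peak in each, with 14 reads for the WT label and 25 for the other.

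**Figure D3:**
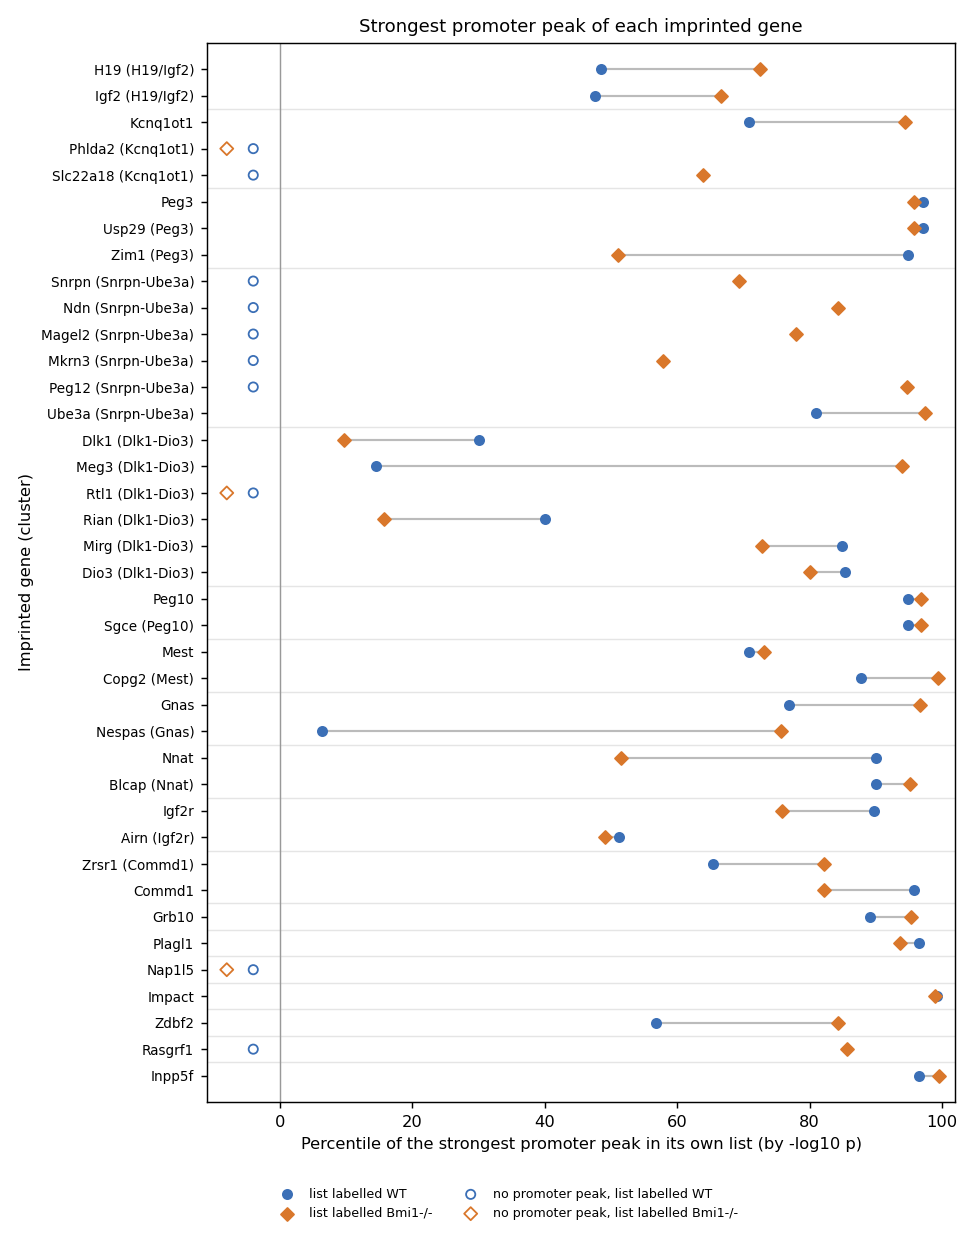
Percentile of the strongest promoter peak in its own list (horizontal axis, by −log10 p) for the 39 imprinted genes in order of cluster (rows), with filled circles for the list labelled WT, filled diamonds for the list labelled Bmi1-/-, a grey line between them, and open symbols left of 0 for a list with no promoter peak. The 5 paternally expressed genes of the Snrpn-Ube3a cluster have an open circle and a filled diamond each.

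Strong promoter peaks, at or above the 90th percentile in at least 1 list, were found at 18 members (46.2%, 30.1 to 62.8%) and at 28.4% of all genes. This held for 11 members in the list labelled WT (28.2%, all genes 14.6%), for 15 in the list labelled Bmi1-/- (38.5%, all genes 24.3%), and for 8 in both (20.5%, all genes 10.5%). The last 2 background shares lay inside the members' intervals, 23.4 to 55.4% and 9.30 to 36.5%. The strongest peak of a member was also taken over more TSS than that of most genes, as given above. The intervals count each gene as separate, although some members have the same strongest peak. This held for Peg3 and Usp29 and for Peg10 and Sgce in both lists, and for Nnat and Blcap in the list labelled WT. The 8 members in both were Impact, Inpp5f, Peg3, Usp29, Peg10, Sgce, Plagl1 and Blcap. Of all promoter peaks of the members, 11 of 64 (17.2%) and 14 of 79 (17.7%) were in the top decile of their list, where 17.4% and 22.8% of the promoter peaks of all genes were.

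Impact, a translational regulator of neurons, had the widest promoter peak, at an internal start within an intron. It had 30 reads and a −log10 q of 6.90 in the list labelled WT and 43 reads and 9.92 in the other, at the 99.2 and 99.0 percentiles. Inpp5f encodes a phosphoinositide phosphatase, and only a transcript that starts within it is imprinted. At its main start the lists had 24 and 44 reads, with a −log10 q of 3.79 and 14.2. At the CpG-rich start inside the gene, from which the window above was taken, the list labelled WT had 2 peaks of 21 reads each and the other 1 peak of 22.

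Peg3, a zinc finger gene of the paternal copy, and Usp29, which runs the other way from the same start, share a promoter and 3 peaks in each list. The strongest pair lay in an intron of Peg3, with 30 and 39 reads and a −log10 q of 4.18 and 5.06. That pair holds the YY1 word 5 times in the WT-labelled peak of 833 bases and 3 times in the other, of 494 bases. A further peak of the list labelled Bmi1-/- that overlaps the same WT-labelled peak holds the word 4 times. Peg10, a retrotransposon-derived gene, and Sgce, which encodes a sarcoglycan, also share a start. A peak of 1183 bases over both starts had 31 reads and a −log10 q of 5.88 in the list labelled Bmi1-/-, and the overlapping WT-labelled peak of 325 bases had 15. A second overlapping pair 1839 bases into Peg10, by the WT-labelled peak, had 23 and 25 reads.

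Plagl1, a zinc finger gene that acts on other imprinted genes, had its strongest WT-labelled peak at its imprinted start, chr10:13090528-13091037, with 24 reads and a −log10 q of 3.79. In the list labelled Bmi1-/- 2 peaks overlapped it, with 20 and 22 reads and a −log10 q of 1.35 and 1.97, and the strongest peak of that list was at another start, with 28. Nnat, a small membrane protein gene of the brain, lies within an intron of Blcap, and a peak of 22 and 26 reads at Nnat overlapped between the lists. It was at the 90.1 percentile of the list labelled WT and the 51.6 of the other. At the Blcap start the list labelled Bmi1-/- had 36 reads and a −log10 q of 4.73 with no WT-labelled peak overlapping.

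In 7 members (17.9%) the strongest promoter peak was at or above the 90th percentile in the list labelled Bmi1-/- and below it in the list labelled WT or missing there, which 13.8% of all genes showed. Besides Peg12 these were Copg2, Ube3a, Gnas, Grb10, Kcnq1ot1 and Meg3. Copg2, a coatomer gene antisense to Mest, had 21 and 41 reads at its start, a −log10 q of 2.44 and 12.02, and percentiles of 87.8 and 99.3. At Ube3a the start had 20 and 32 reads, with a −log10 q of 2.07 and 6.56. Gnas, which encodes the stimulatory G protein subunit from several imprinted starts, had 40 reads over 1 of its starts in the list labelled Bmi1-/-, in a peak of 1453 bases that overlapped 2 WT-labelled peaks of 21 and 26 reads.

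Grb10, an adaptor that limits insulin signalling, had overlapping peaks at its CpG-rich internal start, printed above, with 22 reads for the WT label and 24 for the other. The strongest peak of the list labelled Bmi1-/- lay at the upstream start, with 30 reads and no WT-labelled peak. Kcnq1ot1, the non-coding RNA that silences its cluster on the paternal copy, had 19 and 29 reads at its start and percentiles of 70.8 and 94.4. Meg3, the maternally expressed RNA of the Dlk1-Dio3 cluster, had 17 and 32 reads at an internal start, in peaks 49 bases apart, at percentiles of 14.6 and 94.0.

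In 3 members (7.69%, all genes 4.07%) the strong peak was in the list labelled WT. Commd1, a copper metabolism gene that hosts Zrsr1, had 26 reads at its start in the list labelled WT, at the 95.7 percentile, and the overlapping peak of the other list had 21. Zim1, a maternally expressed zinc finger gene beside Peg3, had 23 reads 2933 bases into the gene, at the 94.8 percentile, with no overlap, and the list labelled Bmi1-/- had 22 reads at the start itself. Nnat was the third.

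The remaining members had promoter peaks in both lists below the 90th percentile. At H19 the start had 22 and 27 reads in overlapping peaks, and Igf2, the growth factor gene it shares enhancers with, had 5 and 4 promoter peaks, the strongest with 22 and 23 reads. At Igf2r, the receptor gene that clears this factor, the strongest peak of the list labelled Bmi1-/- was at −156 bases from the main start, with 26 reads, and that of the list labelled WT was at an internal start, with 24. Airn, the antisense RNA that silences Igf2r, had a peak across its first start, chr17:12741279-12741516, in the list labelled Bmi1-/-, with 24 reads and a −log10 q of 1.42. No WT-labelled peak overlapped it, and the strongest WT-labelled Airn peak, of 19 reads, was at another annotated start.

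Dlk1, a Notch-related ligand, had the weakest pair of strongest peaks among protein-coding members, at percentiles of 30.1 and 9.77. Rian and Mirg, host RNAs of snoRNAs and miRNAs, were at 40.1 and 15.8 and at 85.0 and 72.9. Dio3, which inactivates thyroid hormone, was at 85.4 and 80.1. All 4 ranked higher in the list labelled WT, as did 13 of 36 members in all.

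Mest, a paternally expressed hydrolase gene, had 19 and 24 reads in peaks that did not overlap, the one of the list labelled Bmi1-/- lying on the start with 4 ZFP57 hexamers. Nespas, antisense to the first Gnas start, was at the 6.32 and 75.7 percentiles. Zrsr1, a splicing factor retrogene, was at 65.4 and 82.1 with 19 and 25 reads in overlapping peaks. Zdbf2, a paternally expressed zinc finger gene, was at 56.8 and 84.3 with 18 and 24 reads. These 4 ranked higher in the list labelled Bmi1-/-.

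Of the 36 members with any promoter peak, 23 had their strongest one at a higher percentile in the list labelled Bmi1-/- (63.9%, 46.2 to 79.2%). Over all genes the share was 66.9%, so the members' share was near the background. Among the 29 members with peaks in both lists it was 16, or 55.2% (35.7 to 73.6%), and 66.5% of all genes with peaks in both. The median percentile was 85.4 over 29 members in the list labelled WT and 83.2 over 36 in the other. For all genes it was 74.8 and 84.3.

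Of the 29 members with promoter peaks in both lists, 22 had a pair of promoter peaks that overlapped by at least 1 bp, and in 12 the strongest peaks of the lists overlapped each other. The 7 without an overlapping pair were Airn, Dlk1, Igf2r, Meg3, Nespas, Rian and Zim1. Such counts per gene were not made over all genes, so they do not set the members apart from other genes. Overlap with any peak of the other list was found for 32 of 64 promoter peaks of the list labelled WT (50%, 37.2 to 62.8%) and 29 of 79 of the other (36.7%, 26.1 to 48.3%). Over the promoter peaks of all genes the shares were 46.0% and 34.5%, near those of the members, and over all peaks 24.8% and 18.5%. For region peaks the shares were 42.1% (53 of 126) and 31.4% (50 of 159). With an overlap of at least 50% of both peaks they fell to 17.5% and 13.8%.

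To compare the 31 overlapping promoter pairs at like depth, each pileup was divided by the commonest background of its list. A WT-labelled peak was paired with the peak it overlapped most. The ratio of the list labelled Bmi1-/- to the other had a median of 1.06, from 0.622 at Inpp5f to 2.15 at Copg2, and 19 of 31 were above 1. Over 19222 pairs in the genome the median was 0.993, and 9409 were above 1. The 31 pairs are not all separate sites. At Copg2, Gnas, Peg3/Usp29 and Inpp5f 1 peak of the list labelled Bmi1-/- entered more than 1 pair. The interval lay wholly above 1 for 1 pair, at Copg2 (2.15, 1.16 to 4.18), where 1 wide peak of the list labelled Bmi1-/- met 2 WT-labelled peaks. For the other of these the ratio was 1.54 (0.886 to 2.73). The lowest ratios, at Inpp5f, Commd1 (0.635) and Plagl1 (0.655), all had intervals that included 1. The second peak that met the Plagl1 peak gave 0.721, and a second peak at Peg3/Usp29 gave 0.734. The divided pileup is an added measure, chosen after the data were seen.

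**Figure D4:**
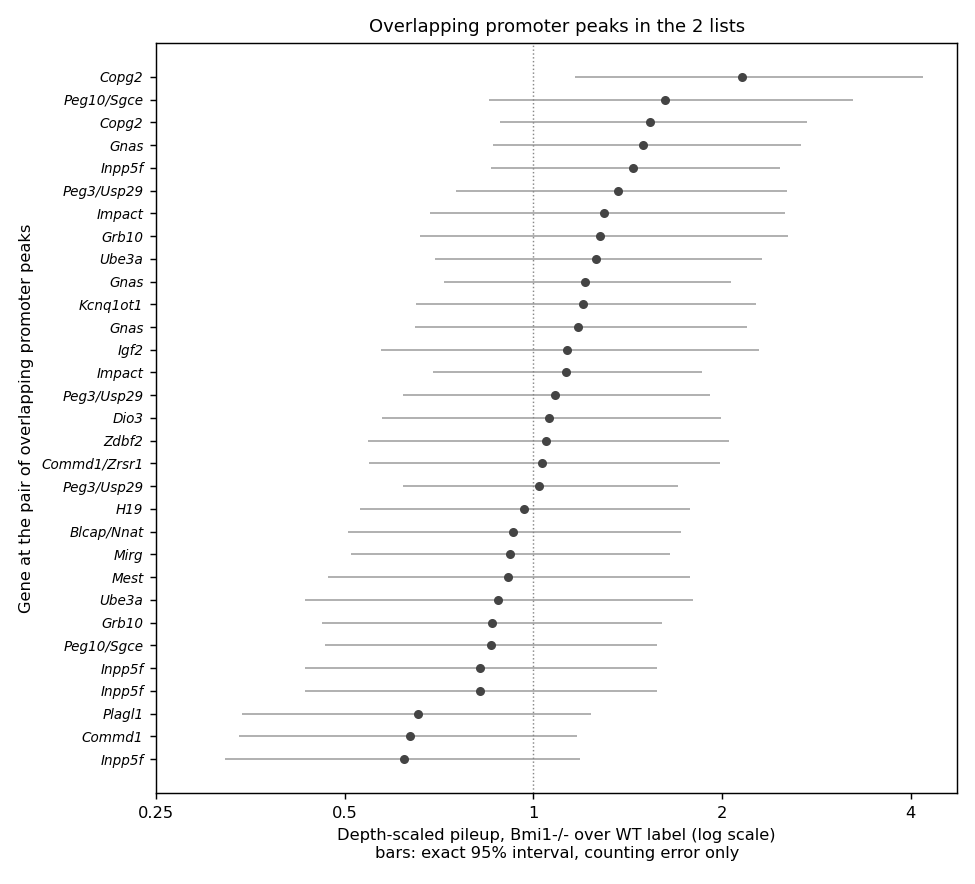
Ratio of depth-scaled pileups, list labelled Bmi1-/- over list labelled WT (horizontal axis, log scale), for the 31 pairs of overlapping promoter peaks (rows, 1 point a pair), with bars for exact 95% intervals of counting error. The points run from 0.622 to 2.15 around the dotted line at 1, and 1 Copg2 pair has a bar wholly above it.

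By cluster, the span of the members with 10 kb to each side held more peaks in the list labelled Bmi1-/- for 12 of 18 clusters or single genes, fewer for 5 and as many for 1. Over all regions the lists had 126 and 159 peaks, a ratio of 1.26 (0.993 to 1.61), and the whole lists gave 1.29. At −log10 q of at least 5 they had 4 and 12, a ratio of 3 (0.909 to 12.8), and the whole lists 1262 and 4246, a ratio of 3.36. The Dlk1-Dio3 cluster had the most peaks, 53 and 63 over 848.3 kb. In the Igf2r cluster the counts were 11 and 24, a ratio of 2.18 (1.03 to 4.93) that included that of the whole lists, and in the Grb10 region 7 and 15. Igf2r itself had 2 and 12 region peaks and Airn, which overlaps it, 7 and 17.

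More WT-labelled peaks were found at Commd1 (10 and 5), H19/Igf2 (12 and 9), Gnas (11 and 8), Rasgrf1 (12 and 10) and Mest (8 and 7). At Commd1 the ratio was 0.50 (0.134 to 1.61). The strongest peaks at Copg2 and Peg10 lay outside promoters and overlapped between the lists. An intron of Copg2 held a peak of 56 and 53 reads with a −log10 q of 25.2 and 21.1. A peak 3′ of Peg10 had 58 and 49 reads and a −log10 q of 30.5 and 17.9.

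**Figure D5:**
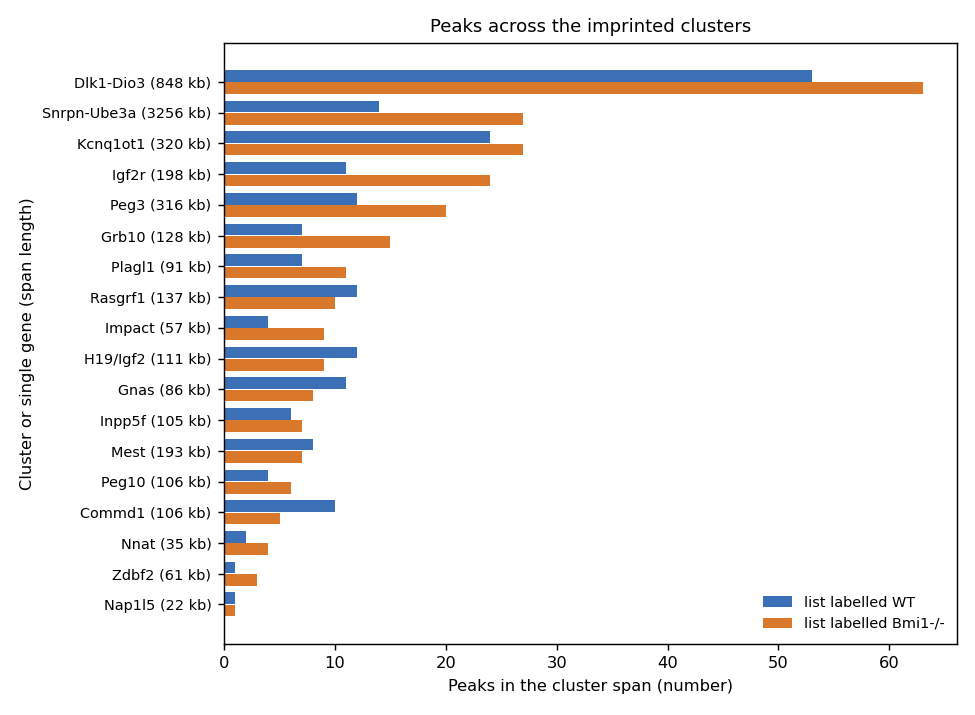
Number of peaks (horizontal axis) in the span of each cluster or single gene with 10 kb to each side (rows, span length in kb), with 1 bar for each list. The Snrpn-Ube3a bars read 14 and 27 and the Igf2r bars 11 and 24, and 5 spans, Commd1 among them at 10 and 5, have the longer bar in the list labelled WT.

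Grouped by the copy they are expressed from, as background knowledge gives it, 16 of 24 paternally expressed members had promoter peaks in both lists, 6 in the list labelled Bmi1-/- alone and 2 in neither. Of 8 maternally expressed members the counts were 6, 1 and 1. The shares in the list labelled Bmi1-/- alone were 25% (9.77 to 46.7%) and 12.5% (0.316 to 52.65%), and both intervals included the 16.1% of all genes. The shares in both lists were 66.7% (44.7 to 84.4%) and 75% (34.9 to 96.8%), where 43.8% of all genes were. All 7 members imprinted by tissue or isoform had promoter peaks in both lists (100%, 59.0 to 100%). Of the 6 paternally expressed genes with peaks in the list labelled Bmi1-/- alone, 5 were the neighbours at Snrpn-Ube3a, so these are few separate loci. All 7 non-coding members had promoter peaks in both lists (100%, 59.0 to 100%), where 24.1% of long non-coding genes did. With RefSeq transcripts this held for H19 and Kcnq1ot1 and not for Meg3, Airn, Mirg or Rian, and Nespas had no such transcript. At a −log10 q of at least 1.3 it did not hold for Meg3, Nespas or Rian. Rian, Meg3 and Mirg have 19, 11 and 11 annotated TSS, and the part of this was not tested.

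Of 39 other imprinted genes, 23 had promoter peaks in both lists (59.0%, 42.1 to 74.4%) and 8 in the list labelled Bmi1-/- alone (20.5%, 9.30 to 36.5%). These intervals included the shares of all genes, 43.8% and 16.1%. A further 4 had them in the list labelled WT alone and 4 in neither (10.3% each, 2.87 to 24.2%), against 7.68% and 32.4% of all genes. The strongest included those of Snhg14, at the 99.47 and 94.69 percentiles, and Nap1l4, at the 99.0 and 97.7. Snurf, which shares its start with Snrpn, was among those in the list labelled Bmi1-/- alone, and the 4 of the other list were Asb4, Klf14, Slc22a2 and Sfmbt2, all named after their values were seen.

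Of 16 genes that set or keep imprints, 11 had promoter peaks in both lists (68.8%, 41.3 to 89.0%) and 4 in the list labelled Bmi1-/- alone (25%, 7.27 to 52.4%). These intervals also included the shares of all genes, 43.8% and 16.1%. The strongest were at Arid4a, at the 99.55 and 98.81 percentiles, and Arid4b, at the 98.8 and 99.7, which encode chromatin proteins of the Snrpn control region. The 4 with promoter peaks in the list labelled Bmi1-/- alone, also named after their values were seen, were Zfp57, with a −log10 q of up to 2.33, Zfp445, its partner in imprint maintenance, with 4.02, Setdb1 and Uhrf1. Dppa3, a protector of the maternal mark in the egg, had 1 WT-labelled peak with a −log10 q of 1.15 and none in the other list.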

How the data were processed

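ATAC-seq peak lists of 2 libraries, 1 per genotype, were grouped by the genotype in the labels. Reads were trimmed and mapped by the authors, who called peaks per library with MACS2, and the submitters' processing notes also name FastQC, BWA, HOMER and the build mm10, without versions. The deposited fold enrichment is a ratio, (pileup + 1) over (local background + 1) at the summit. The deposited −log10 p follows from a Poisson model with that background, the deposited −log10 q is adjusted within the library, and the deposited score was not used. The RNA and ChIP data were not used here.

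Only peaks on the autosomes and sex chromosomes entered (77596 of 77826 and 100431 of 100668). Pileup and background were solved from fold enrichment and −log10 p, which gave a whole pileup for 100% of peaks. TSS came from GENCODE vM21. Python 3.11.15, numpy 2.4.6, pandas 2.3.3, scipy 1.17.1 and matplotlib 3.10.9 were used, and the solution was tested on simulated data. With 1 library per genotype no test was made. Every member was accounted for, with full values for a strongest promoter peak at or above the 90th percentile in either list and for members with promoter peaks in 1 list at a −log10 q of at least 1.3. Members, gene lists and alternatives were chosen with earlier results of these data known.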

Additional observations from a re-analysis of the deposited data

How the results depend on the processing

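No paired analysis was possible because each genotype has 1 library. Peaks below the deposited limit, a −log10 p of about 2, have no value, so a gene without a peak is one whose signal was not listed at this depth, and the causes of the changes below were not tested. At a −log10 q of at least 5, promoter peaks were found in both lists for 1 member and in neither for 30, the regions held 4 and 12 peaks, and all genes gave 2.60% in both lists, 11.4% in the list labelled Bmi1-/- alone, 0.735% in the list labelled WT alone and 85.3% in neither. At a −log10 q of at least 1.3, 5 members had no promoter peak, the WT-labelled regions held 68 peaks, 15 other imprinted genes had peaks in both lists, no imprint regulator had them in the list labelled WT alone (0), and all genes gave 31.7%, 19.8%, 6.40% and 42.1%. With both lists reduced to equal numbers of their strongest peaks, 2 members had promoter peaks in the list labelled WT alone, and all genes gave 41.8%, 13.7%, 9.73% and 34.8%. With a 1 kb window, 1 member had them in the list labelled WT alone and 7 in neither, and the shares of all genes were not computed at this width. With RefSeq transcripts, 12 members had them in the list labelled Bmi1-/- alone and 2 in the other alone, and all genes, an alternative added later, gave 46.3%, 18.2%, 7.20% and 28.3%. Without the Snrpn-Ube3a cluster, an alternative added after the data were seen, 2 had them in the list labelled Bmi1-/- alone. At 50% reciprocal overlap 17.5% and 13.8% of region peaks overlapped. Protein-coding genes alone gave 53.0%, 15.2%, 6.10% and 25.7%. The other counts stayed within 1.5 times and the other shares within their interval, but not always for the same genes. Of the 7 members with promoter peaks in the list labelled Bmi1-/- alone, 4 kept that state with the 1 kb window, where Zim1, Dio3 and Blcap joined them, and 0 kept it at a −log10 q of at least 5, where the 8 in that state were Peg3, Usp29, Ube3a, Peg10, Sgce, Copg2, Gnas and Inpp5f.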
